A study of Mus musculus with 16 samples.

Results

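Expression of 41 genes of the cell cycle and DNA replication was described in mouse heart fibroblasts grown in culture, which are the main matrix-making cells of the heart. The genes were listed by symbol for their known roles, and no measured value entered the rule, although the list was drawn up with earlier results of these data known. All 41 symbols matched 1 identifier each among the 55414 in the count table, and all 41 passed the filter on low counts, within 15285 genes tested. By role they comprised 4 regulators of G1 and of entry into S phase, 11 genes of replication licensing and the replication fork, 4 of deoxynucleotide supply, 9 cyclins, kinases and their regulators of S, G2 and M phase, 3 of the spindle checkpoint and mitotic exit, 3 of the centromere and kinetochore, 5 of the spindle and cytokinesis, and 2 widely used proliferation markers.

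As background, a cell leaves G1 when D-type cyclins and their kinases inactivate the retinoblastoma protein, which frees E2F factors to switch on replication genes. A later wave, driven in part by the factors B-Myb and FoxM1, switches on mitotic genes, and most of these transcripts are scarce in resting cells. TGF-beta is known for turning cardiac fibroblasts into contractile myofibroblasts and, in many cell types, for slowing division through inhibitors of the cyclin-dependent kinases.

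Per the labels, the cells were heart fibroblasts at passage 2, starved of serum for 24 h and given adenovirus for 5 h. RNA was collected after 48 h of stimulation in fresh medium. The 4 groups were cells with a GFP virus, cells with a Cre virus, and each of these with TGF-beta at 20 ng/mL, with 4 libraries in each group and 16 in all. The Cre virus was meant to delete exon 2 of a floxed Has2, the gene of a hyaluronan synthase. The treatment text calls the cells Has2fl/fl, while the label for genotype gives wild type C57BL/6J. The same text names basic fibroblast growth factor, a mitogen, beside TGF-beta and does not say which dishes received it, so the untreated groups may or may not have had it. The growth medium before starvation also held serum and this factor. Each replicate number stood for 1 cell preparation that was split over the 4 groups, with preparations 1 and 4 from male and 2 and 3 from female mice. Whether a preparation pooled several hearts is not stated.

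Library totals ranged from 17.9 to 48.7 M counts, and values below are counts per M counts of the library (CPM), scaled by the TMM factors of edgeR, unless stated. Preparation 4 stood apart. The 10 genes with the most counts held 6.88% to 7.34% of its totals against 10.3% to 12.1% in the other preparations, and its fibroblast markers summed to 12421 to 15526 CPM against at least 22270 elsewhere. All 6 fibroblast markers passed the filter, and most of their sum was Col1a1 and Col1a2 (medians of 10789 and 10839 CPM in GFP cells). The medians of the others, Dcn, Pdgfra, Tcf21 and Thy1, were lower with TGF-beta under both viruses. The 6 macrophage and leukocyte markers summed to 741 to 1130 CPM in preparation 4 and to 343 to 664 CPM in preparations 1 to 3. Of the cardiomyocyte markers only Tnnt2 passed the filter, and Myh6 had 0 or 1 count per library. Results are therefore given with and without preparation 4.

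Has2 itself was measured first. In the order of preparations 1 to 4, which is used throughout, it stood at 17.97, 15.3, 23.2 and 18.4 CPM in GFP cells and 14.9, 13.5, 16.6 and 13.9 in Cre cells. Its levels with TGF-beta were 15.3, 9.47, 21.9 and 20.6 CPM after the GFP virus and 12.4, 11.04, 25.0 and 17.4 after the Cre virus. The groups overlapped in both comparisons, with a Cre against GFP log2 fold change of -0.35 ± 0.26 (SE; edgeR adjusted p = 1.00) without and -0.03 ± 0.26 (adjusted p = 1.00) with TGF-beta. Without TGF-beta, Has2 was lower after the Cre virus in all 4 preparations, by 0.17 to 0.47 in log2, and blocking on the preparation gave -0.32 ± 0.15 (adjusted p = 0.827). With TGF-beta it was lower in 2 and higher in 2 (-0.04 ± 0.15, adjusted p = 0.949). A count over the whole gene includes the exons outside the deletion, so it is no measure of how many alleles were deleted.

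The first question was how TGF-beta moved the division genes. In preparations 1 to 3 nearly all of them were lower with TGF-beta, and in preparation 4 most were higher. The mean level of the 41 genes, as log2(CPM + 0.5), was 4.26, 3.95, 4.63 and 4.52 in GFP cells and 3.32, 3.26, 3.97 and 4.76 in GFP cells with TGF-beta. In Cre cells it was 4.14, 3.98, 4.70 and 4.34, and with TGF-beta 3.39, 3.35, 4.25 and 4.54. Within a preparation the difference was thus -0.94, -0.69, -0.65 and 0.24 in GFP cells and -0.75, -0.64, -0.45 and 0.21 in Cre cells. The 3 preparations that were lower and the 1 that was higher were the same under both viruses, which share preparations but no library. These are averages over chosen genes and carry no test. In bulk RNA, fewer dividing cells and less of these transcripts per dividing cell cannot be told apart.

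**Figure D1:**
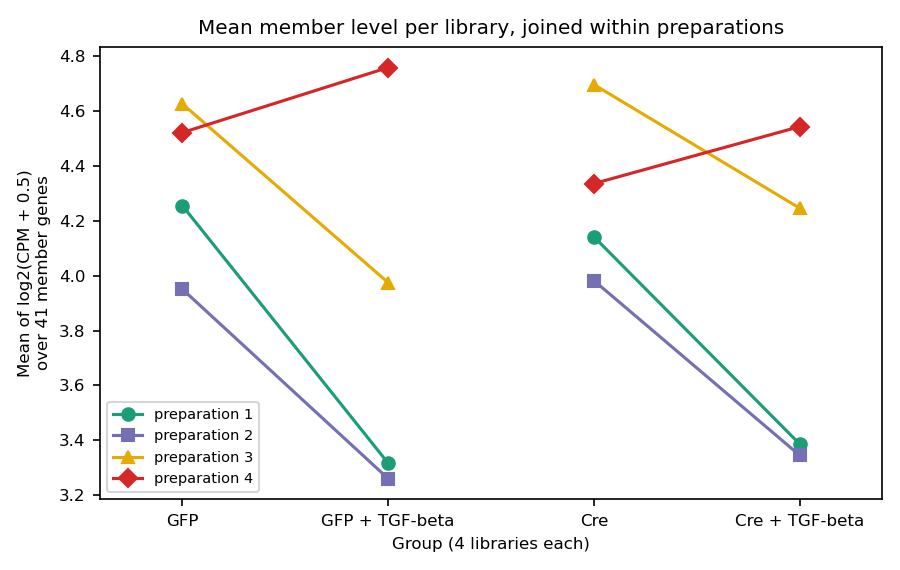
Mean of log2(CPM + 0.5) over the 41 genes in each of the 16 libraries, with lines joining libraries of 1 preparation without and with TGF-beta. Preparations 1, 2 and 3 slope down under both viruses, by 0.45 to 0.94, and preparation 4 slopes up, by 0.24 in GFP and 0.21 in Cre cells.

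Gene by gene, 37, 34 and 37 of the 41 were lower with TGF-beta in preparations 1, 2 and 3 of GFP cells, and 9 in preparation 4. In Cre cells these numbers were 36, 38, 32 and 13. Over all genes tested, between 49.4% and 53.5% were lower in each preparation of GFP cells. The members' median log2 difference in GFP cells was -1.18, -0.67, -0.55 and 0.33, and in Cre cells -0.79, -0.55, -0.56 and 0.28.

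Across the 6 pairs of preparations 1 to 3, 30 of the 41 genes were lower with TGF-beta in every pair, which was 73.2% of the members against 29.4% of all genes tested. Of those 30 genes, 21 were higher in both pairs of preparation 4. The reversal was held by 51.2% of the members and by 2.1% of all genes tested, a pattern chosen after the values were seen and given without a test. Ccnd1, Bub1b, Kif11 and Hmmr were lower in all 8 pairs, which was 9.76% of the members against 24.7% of all genes tested. Rrm1 and Tyms, 2 of the 41, were higher in all 8, against 3129 of the 15285 genes tested.

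**Figure D2:**
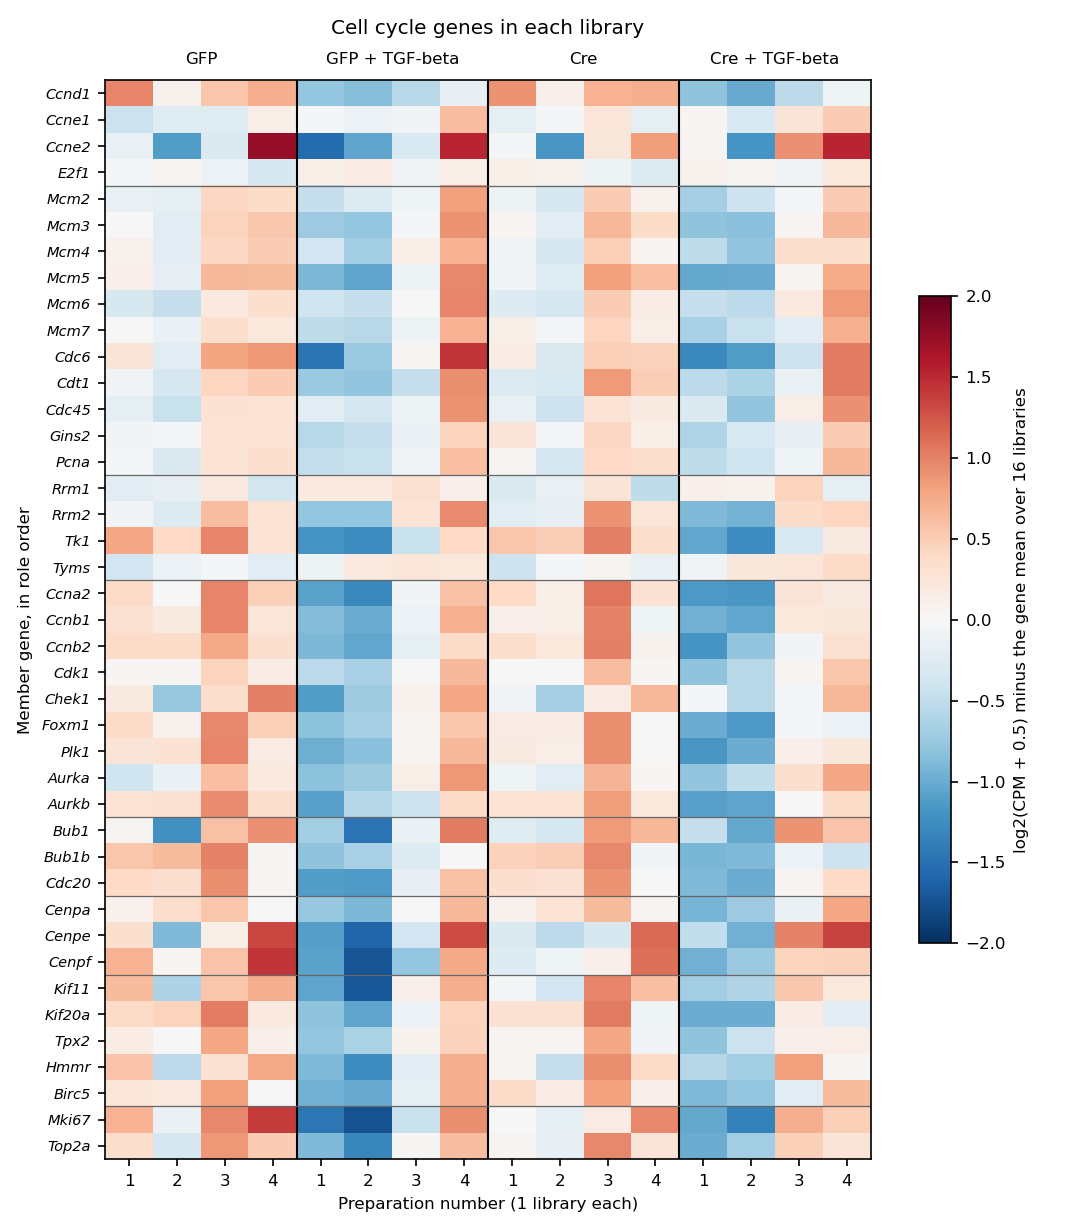
Level of each of the 41 genes in each library as log2(CPM + 0.5) minus the gene's mean over the 16 libraries, in role order, with groups separated by vertical lines. Columns 1 and 2 of both TGF-beta groups are blue for most genes, and column 4 of those groups is red for most. Rrm1 and E2f1 in columns 1 and 2 of those groups and Tyms in column 2 lie above their means instead.

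Few of the genes passed the test over all 4 preparations. With edgeR's quasi-likelihood test, adjusted over all 15285 genes, 3 of the 41 fell with TGF-beta in GFP cells and 0 rose, where 15.3% of all genes tested fell and 13.8% rose. The 3 genes were Ccnd1, Tk1 and Bub1b. In Cre cells the same 3 genes fell and 0 rose, against backgrounds of 16.3% lower and 14% higher. The members' share of 3 in 41 was thus below the background in both. At an unadjusted p under 0.05 the numbers were 8 and 7 of the 41 members, in either direction, against 6080 and 6392 of the 15285 genes. DESeq2 called 3 members lower in GFP cells (14% of the genes it gave a p) and 5 in Cre cells (15.6%), and 0 higher (12.5% and 13.1%). The members' median log2 fold change was -0.40 in GFP and -0.36 in Cre cells, against -0.02 and 0.02 over all genes tested.

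With the preparation as a block in the fit, 14 members fell and 2 rose in GFP cells, where 26.5% of all genes fell and 22.6% rose. In Cre cells 12 fell and 2 rose, against 27.3% and 25.2%. Leaving out preparation 1, 2 or 3 from the blocked fit cut the fallen members to 4, 5 and 5 in GFP cells and to 4, 4 and 7 in Cre cells. Over all genes, those that rose in GFP cells went from 3451 to 2571, 2826 and 3042 in these fits. The matching numbers of all genes that fell, and those in Cre cells, are not given here. The drop in fallen members therefore stands without a background of the same direction. The 9 that fell under both viruses, 9 of 14 and 9 of 12, were Ccnd1, Mcm5, Tk1, Ccna2, Ccnb2, Foxm1, Aurkb, Bub1b and Kif20a. The 2 that rose under both were Rrm1 and Tyms. Whether a gene called under 1 virus only responded differently there was tested separately, as given further on, and no such difference passed.

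Without preparation 4, 17 members in GFP cells and 14 in Cre cells fell in the fit without a block, against backgrounds of 21.3% and 22.5%, and 0 rose under either, where 18.6% and 20.2% of all genes rose. Of these, 13 were shared. With the block and without preparation 4, 33 members fell and 2 rose in GFP cells, against 27.7% and 25.3% of all genes. In Cre cells 28 fell and 2 rose, against 28.6% and 28%. Leaving out preparation 4 raised the members' calls by more than it raised those of all genes. That follows from the reversal in preparation 4 described above and is no separate evidence.

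**Figure D3:**
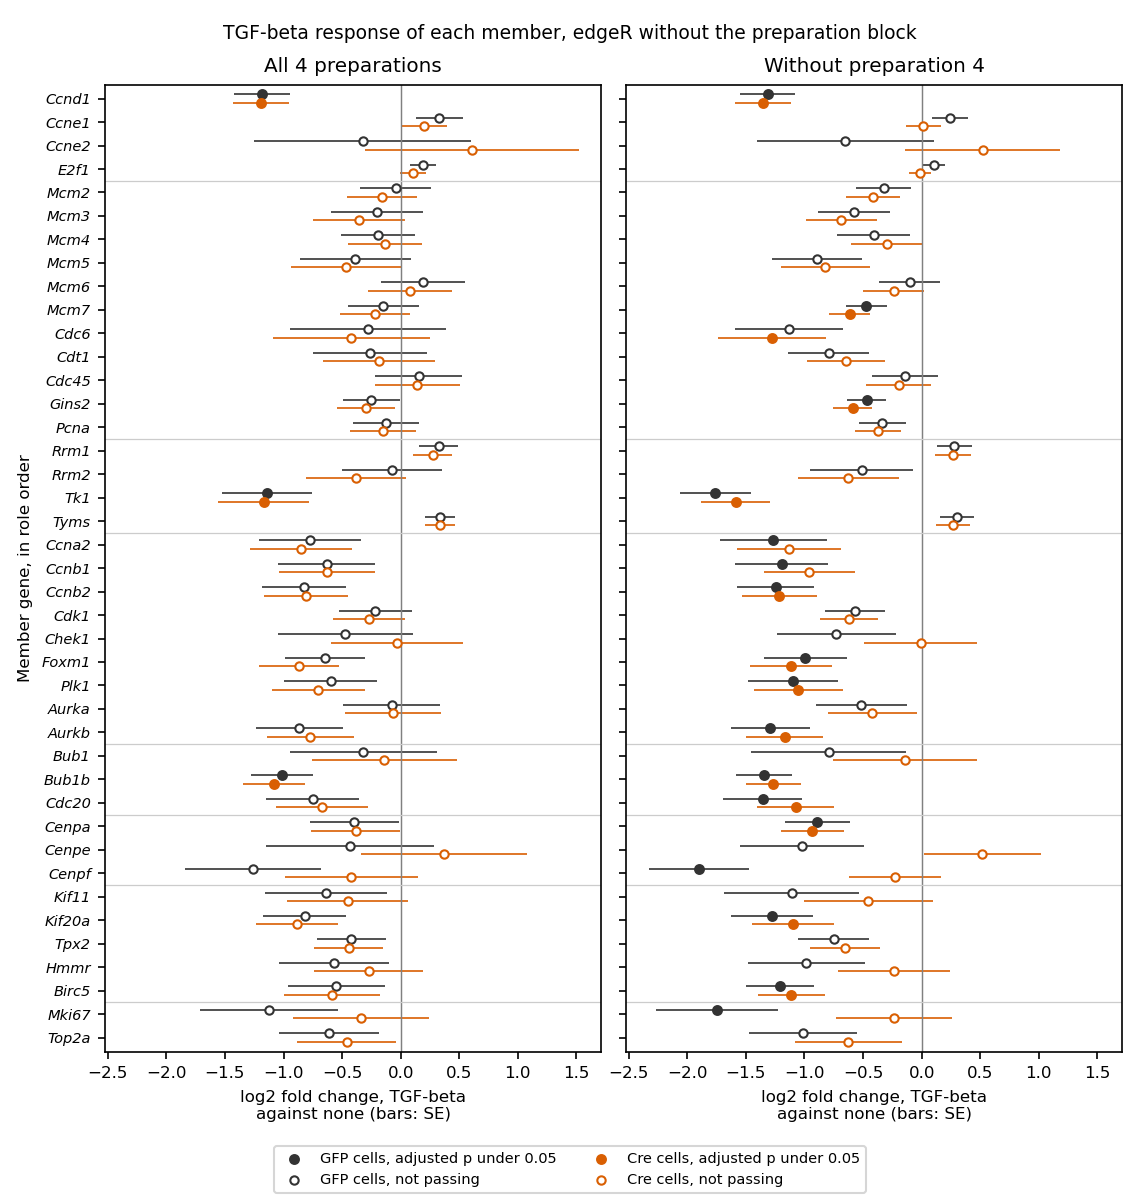
log2 fold change with TGF-beta of each of the 41 genes in GFP cells (black) and Cre cells (orange), fitted by edgeR without the block over all 4 preparations (left) and without preparation 4 (right). Bars are SE and filled points passed an adjusted p under 0.05, which 3 genes per virus did on the left and 17 in GFP and 14 in Cre cells on the right.

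The G1 regulators had fold changes of both signs. Ccnd1, cyclin D1, which links growth signals to the G1 kinases, had by far the highest level per length of the 41 genes in GFP cells (426 CPM per kb of exon, followed by Pcna at 19.0 and Cdc20 at 16.3). It stood at 2569, 1386, 1916 and 2158 CPM in GFP cells and 759, 722, 888 and 1163 with TGF-beta. In Cre cells it stood at 2430, 1399, 2102 and 2166 CPM, and with TGF-beta at 747, 650, 912 and 1227. Every library with TGF-beta lay below every library without it, in preparation 4 too. Ccnd1 fell by 1.18 ± 0.24 on the log2 scale (SE; edgeR adjusted p = 0.00164) in GFP cells and by 1.20 ± 0.24 (adjusted p = 0.00151) in Cre cells.

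The other G1 regulators gave small or variable values. Ccne1, cyclin E1, which drives entry into S phase, was at 14.2, 16.3, 16.4 and 21.3 CPM in GFP cells and 19.1, 17.9, 18.7 and 29.9 with TGF-beta. Cre cells had 17.0, 18.8, 23.0 and 16.8 CPM, and 20.0, 15.6, 23.3 and 27.9 with TGF-beta. The groups overlapped, although each pair in GFP cells was higher with TGF-beta (log2 fold change 0.33 ± 0.20, adjusted p = 0.243 in GFP and 0.20 ± 0.20, adjusted p = 0.473 in Cre cells).

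E2f1, the transcription factor that activates replication genes, was nearly level. It was at 41.02, 43.9, 38.8 and 33.8 CPM in GFP cells and 46.1, 47.4, 40.1 and 46.6 with TGF-beta, and at 46.1, 44.7, 39.2 and 35.0 CPM in Cre cells and 45.1, 42.8, 40.2 and 49.3 with TGF-beta. The ranges overlapped in both (0.19 ± 0.11, adjusted p = 0.210 in GFP and 0.10 ± 0.11, adjusted p = 0.504 in Cre cells). Ccne2, cyclin E2, had as few as 6 counts in a library and differed widely among preparations (1.69, 0.61, 1.49 and 7.70 CPM in GFP cells). Its fold change of -0.33 ± 0.93 in GFP cells was no usable estimate, and the part of depth in that width was not tested.

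Among the 11 genes of replication licensing and the fork, 0 passed the test in either virus, with a median log2 fold change of -0.19 in both GFP and Cre cells. With the block, Mcm5 fell in GFP cells, and Mcm5 and Mcm3 fell in Cre cells. Mcm2 to Mcm7 encode the subunits of the ring-shaped helicase that is loaded at replication origins by Cdc6 and Cdt1 and activated with Cdc45 and the GINS complex, while Pcna is the clamp that holds the polymerase on DNA.

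Mcm5 was at 19.8, 16.4, 29.2 and 28.8 CPM in GFP cells and at 9.70, 8.61, 17.2 and 36.4 with TGF-beta. Cre cells held 17.7, 15.4, 32.96 and 28.1 CPM, and 8.82, 8.97, 19.2 and 31.1 with TGF-beta. Preparations 1 to 3 were lower by 0.75 to 0.99 in log2 under both viruses, and preparation 4 was higher by 0.33 and 0.15. The fit over all 4 gave -0.39 ± 0.47 (adjusted p = 0.583) and -0.47 ± 0.47 (0.475), and with the block -0.57 ± 0.22 (adjusted p = 0.0431) and -0.60 ± 0.21 (0.0295).

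Mcm3 followed the same order of preparations. Its levels were 25.3, 21.7, 34.9 and 37.3 CPM in GFP cells and 15.3, 14.8, 25.2 and 48.2 with TGF-beta. In Cre cells they were 26.3, 21.8, 40.7 and 32.98 CPM, and 14.4, 14.1, 26.2 and 40.3 with TGF-beta. In both viruses preparations 1 and 2 with TGF-beta were below every untreated library and preparation 4 was at or near the top. Its fold change was -0.20 ± 0.39 (adjusted p = 0.744) in GFP and -0.36 ± 0.39 (0.516) in Cre cells, and with the block -0.47 ± 0.19 (0.0486) in Cre cells.

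Gins2, a GINS subunit, was at 13.7, 14.1, 17.4 and 17.3 CPM in GFP cells and 9.54, 10.2, 12.9 and 19.7 with TGF-beta. Cre cells had 17.1, 14.1, 19.2 and 15.7 CPM, and 9.21, 11.4, 12.7 and 20.5 with TGF-beta. Under both viruses the first 3 preparations were below all 4 libraries without TGF-beta and the fourth was above them. Its fold change was -0.25 ± 0.25 (adjusted p = 0.488) in GFP and -0.30 ± 0.24 (0.378) in Cre cells. Without preparation 4, Gins2 and Mcm7 fell under both viruses, by 0.47 and 0.47 in GFP and 0.59 and 0.61 in Cre cells.

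The 8 other genes of this role had fold changes from -0.28 for Cdc6 to 0.19 for Mcm6 in GFP cells. Mcm6, a helicase subunit, was among the genes that reversed, with a log2 difference of -0.07, -0.01, -0.18 and 0.65 in GFP and -0.20, -0.19, -0.31 and 0.72 in Cre cells. In preparation 4 all 11 genes of the role were higher with TGF-beta under both viruses.

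Deoxynucleotide supply split. Tk1, thymidine kinase, fell. It was at 16.3, 12.5, 18.9 and 11.4 CPM in GFP cells and 3.85, 3.66, 6.73 and 12.5 with TGF-beta, and at 13.9, 13.2, 19.3 and 12.02 CPM in Cre cells and 4.28, 3.62, 7.43 and 10.7 with TGF-beta. Preparations 1 to 3 with TGF-beta were far below every library without it, and preparation 4 reached the range of the untreated libraries in GFP cells. The log2 fold change was -1.14 ± 0.39 (adjusted p = 0.0378) in GFP and -1.17 ± 0.39 (0.0324) in Cre cells. Without preparation 4 it was -1.76 ± 0.30 (0.000544) and -1.59 ± 0.30 (0.000948). The call for Tk1 was lost without preparation 1 (adjusted p = 0.229 in GFP and 0.156 in Cre cells), 2 (0.126 and 0.118) or 3 (0.208 and 0.158).

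Rrm1, the large subunit of ribonucleotide reductase, was higher. It stood at 95.2, 98.5, 125 and 85.0 CPM in GFP cells and 126, 126, 136 and 118 with TGF-beta. Cre cells had 89.4, 98.9, 132 and 77.3 CPM, and 118, 116, 149 and 96.9 with TGF-beta. Each preparation was higher with TGF-beta under both viruses, by 0.12 to 0.47 in log2, while the groups overlapped. Without the block the fit gave 0.32 ± 0.16 (adjusted p = 0.155) in GFP and 0.27 ± 0.16 (0.223) in Cre cells, and with the block 0.34 ± 0.08 (0.00174) and 0.28 ± 0.08 (0.00632).

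Tyms, thymidylate synthase, had a similar pattern. It was at 19.9, 23.9, 25.3 and 22.4 CPM in GFP cells and 24.3, 30.0, 30.9 and 30.2 with TGF-beta, and at 19.4, 25.6, 27.3 and 23.4 CPM in Cre cells and 25.0, 30.5, 31.0 and 34.4 with TGF-beta. In each virus only preparation 1 with TGF-beta lay within the untreated range. The fitted log2 fold change was 0.34 ± 0.13 in both (adjusted p = 0.0654 in GFP and 0.0618 in Cre cells), and with the block 0.33 ± 0.07 (0.00155) and 0.34 ± 0.07 (0.00113).

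Rrm2, the small reductase subunit whose level is limiting in S phase, kept to the pattern of the replication genes. It was at 19.2, 16.6, 30.8 and 24.2 CPM in GFP cells and 11.4, 11.4, 24.2 and 39.0 with TGF-beta. Its Cre values were 17.1, 17.7, 37.5 and 23.7 CPM, and 10.5, 10.1, 25.7 and 27.1 with TGF-beta. The groups overlapped and the fold change was -0.08 ± 0.43 (adjusted p = 0.914) in GFP and -0.39 ± 0.43 (0.520) in Cre cells. The 2 subunits of 1 enzyme thus gave fold changes of opposite sign, and over all 4 preparations only that of Rrm1 passed, with the block. With the block and without preparation 4, Rrm2 fell by 0.55 (adjusted p = 0.000555) in GFP and by 0.66 (7.16e-05) in Cre cells.

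All 9 cyclins, kinases and regulators of S, G2 and M phase had negative fold changes under both viruses, with medians of -0.63 in GFP and -0.70 in Cre cells, and 0 passed without the block. With it, 4 of the 9 fell in GFP cells (26.5% of all genes) and 6 in Cre cells (27.3%). Foxm1, the factor that switches on mitotic genes, was at 20.2, 16.5, 30.6 and 21.7 CPM in GFP cells and 8.59, 9.61, 15.8 and 22.7 with TGF-beta. Cre cells had 17.4, 17.4, 29.9 and 15.5 CPM, and 7.56, 6.74, 15.3 and 14.2 with TGF-beta, where the groups did not overlap. Its fold change was -0.65 ± 0.34 (adjusted p = 0.173) in GFP and -0.87 ± 0.34 (0.0686) in Cre cells, and with the block -0.68 ± 0.21 (0.0177) and -0.93 ± 0.21 (0.00255).

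The B-type cyclins activate Cdk1, the kinase that starts mitosis. Ccnb2 was at 14.1, 14.0, 18.5 and 13.6 CPM in GFP cells and 5.52, 4.95, 9.42 and 14.1 with TGF-beta, and at 13.8, 12.6, 22.01 and 11.3 CPM in Cre cells and 4.44, 5.99, 10.3 and 13.4 with TGF-beta. Preparation 4 with TGF-beta was the 1 library that reached the untreated range under either virus. As a log2 fold change this was -0.82 ± 0.36 (adjusted p = 0.101) and -0.81 ± 0.36 (0.103), and with the block -0.92 ± 0.28 (0.015) and -0.89 ± 0.27 (0.0153).

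Ccnb1 was at 17.2, 15.6, 27.6 and 16.4 CPM in GFP cells and 7.30, 6.67, 12.7 and 22.9 with TGF-beta. After the Cre virus the levels were 14.8, 15.1, 27.9 and 13 CPM, and 6.88, 6.48, 16.1 and 16.1 with TGF-beta. Preparation 4 was higher with TGF-beta, by 0.47 and 0.30 in log2, and the others were lower by 0.78 to 1.18. edgeR gave -0.63 ± 0.41 in both (adjusted p = 0.272 in GFP and 0.259 in Cre cells), and with the block -0.72 ± 0.29 in both (0.0576 and 0.0499).

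Cdk1 had smaller fold changes than its B-type cyclins, a difference that was not tested. It was at 25.0, 24.8, 33.4 and 27.0 CPM in GFP cells and 16.8, 15.4, 24.2 and 38.5 with TGF-beta, and at 24.3, 24.3, 37.6 and 24.7 CPM in Cre cells and 13.8, 16.5, 25.4 and 36.0 with TGF-beta. Preparations 1 to 3 were lower and preparation 4 higher. Without the block the fit gave -0.22 ± 0.31 (adjusted p = 0.647) and -0.27 ± 0.31 (0.526).

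Aurkb, the Aurora kinase of the centromere and midbody, was at 9.36, 9.58, 15.2 and 9.88 CPM in GFP cells and 3.35, 4.98, 5.56 and 10.1 with TGF-beta. Cre cells had 9.35, 9.34, 14.1 and 8.97 CPM, and 3.34, 3.43, 7.71 and 10.0 with TGF-beta. Again only preparation 4 reached the untreated range. The fitted log2 fold change was -0.87 ± 0.37 (adjusted p = 0.0935) and -0.77 ± 0.37 (0.126), and with the block -0.91 ± 0.27 (0.0130) and -0.88 ± 0.27 (0.0133). Aurka, the Aurora kinase of the spindle poles, had a fold change of -0.08 ± 0.41 in GFP and -0.06 ± 0.41 in Cre cells, and the difference between the 2 Aurora kinases was not tested.

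The remaining genes of this role are Ccna2, the cyclin of S phase and G2, Plk1, a kinase of mitotic entry, and Chek1, the replication checkpoint kinase. Ccna2 had a fold change of -0.78 ± 0.44 (adjusted p = 0.203) in GFP and -0.85 ± 0.44 (0.151) in Cre cells, and passed under both with the block. For Plk1 it was -0.60 ± 0.40 and -0.70 ± 0.40, passing with the block in Cre cells alone (0.0268, against 0.0564 in GFP cells). Chek1 had as few as 8 counts in a library, and its values were -0.47 ± 0.58 and -0.03 ± 0.57.

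In the checkpoint role, Bub1b passed and the other 2 genes did not. Bub1b encodes BubR1, which holds back anaphase until chromosomes are attached. It was at 25.8, 27.1, 35.2 and 17.6 CPM in GFP cells and 9.70, 10.9, 14.2 and 17.5 with TGF-beta. Cre cells had 24.1, 24.6, 34.3 and 16.7 CPM, and 8.95, 9.23, 16.1 and 12.9 with TGF-beta. Groups did not overlap under either virus, although in GFP cells preparation 4 was level. Bub1b fell by 1.01 ± 0.27 (adjusted p = 0.00963) in GFP and by 1.08 ± 0.27 (0.00642) in Cre cells. The call was lost without preparation 1 (adjusted p = 0.0916 in GFP and 0.0674 in Cre cells) or 2 (0.0857 and 0.0650).

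Of the 41 genes, only Ccnd1 and Bub1b in GFP cells, and these with Tk1 and Foxm1 in Cre cells, were lower in all 4 libraries with TGF-beta than in all 4 without, against 14.7% and 15.8% of all genes tested. None was higher without overlap, against 15.1% and 12.5%.

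Cdc20, which activates the ubiquitin ligase that starts anaphase, was at 29.2, 27.7, 42.5 and 22.6 CPM in GFP cells and 9.87, 9.74, 19.6 and 33.2 with TGF-beta. The Cre libraries gave 28.0, 27.0, 41.2 and 22.2 CPM, and 11.6, 10.7, 22.9 and 29.0 with TGF-beta. Without TGF-beta preparation 4 was the lowest library and with TGF-beta it was the highest, under both viruses. As a log2 fold change this was -0.75 ± 0.40 (adjusted p = 0.173) and -0.67 ± 0.40 (0.212). With the block it was -0.88 ± 0.32 (0.0383) and -0.78 ± 0.32 (0.0531), and without preparation 4, unblocked, -1.36 ± 0.34 (0.00635) and -1.08 ± 0.33 (0.0194).

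Bub1, the kinase partner in the same checkpoint, had low and scattered levels. It was at 4.32, 1.51, 6.42 and 8.26 CPM in GFP cells and 2.40, 1.16, 3.74 and 9.03 with TGF-beta, and at 3.42, 3.15, 7.83 and 6.81 CPM in Cre cells and 2.85, 1.77, 8.14 and 6.41 with TGF-beta. The groups overlapped almost fully (-0.32 ± 0.63, adjusted p = 0.747 and -0.14 ± 0.62, 0.884).

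**Figure D4:**
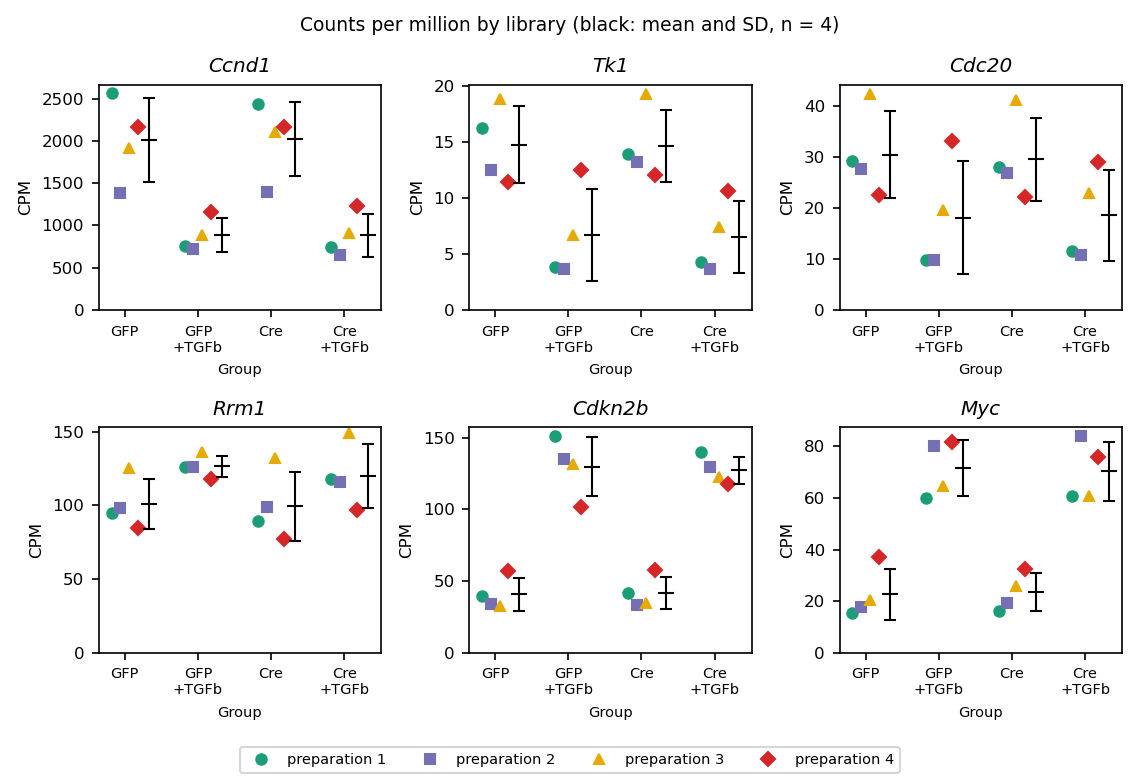
CPM of Ccnd1, Tk1, Cdc20 and Rrm1 of the 41 genes and of Cdkn2b and Myc from the other lists, in each library by group, with symbols for preparations and the mean and SD (n = 4) in black. Ccnd1, Cdkn2b and Myc separate by TGF-beta in all preparations, whereas for Tk1 and Cdc20 the preparation 4 libraries with TGF-beta sit beside the untreated ones.

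At the centromere, Cenpa encodes the histone variant that marks it, and Cenpe and Cenpf encode large kinetochore proteins. Cenpa was at 13.9, 17.0, 19.6 and 13.1 CPM in GFP cells and 7.53, 6.78, 13.2 and 20.8 with TGF-beta. Cre cells had 13.9, 15.9, 20.8 and 13.7 CPM, and 6.65, 7.76, 11.9 and 22.9 with TGF-beta. Preparation 4 with TGF-beta was the highest library under both viruses (-0.40 ± 0.38, adjusted p = 0.478 and -0.38 ± 0.38, 0.467). Without preparation 4, Cenpa fell by 0.89 ± 0.27 (0.0210) and by 0.93 ± 0.27 (0.015).

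Cenpf was at 7.44, 4.57, 6.79 and 12.8 CPM in GFP cells and 1.84, 0.996, 2.40 and 7.82 with TGF-beta. Under the Cre virus it reached 3.63, 4.14, 4.79 and 10.1 CPM, and 2.04, 2.45, 6.21 and 6.29 with TGF-beta. In GFP cells all 4 preparations were lower with TGF-beta, and in Cre cells preparation 3 was higher. edgeR gave -1.26 ± 0.58 (adjusted p = 0.117) in GFP and -0.42 ± 0.57 (0.600) in Cre cells, and with the block -1.49 ± 0.30 (0.000887) and -0.44 ± 0.28 (0.209).

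Cenpe was at 8.46, 3.38, 7.26 and 17.5 CPM in GFP cells and 2.84, 1.86, 4.97 and 17.2 with TGF-beta, and at 5.38, 4.47, 5.202 and 15.2 CPM in Cre cells and 4.57, 3.17, 13.7 and 17.8 with TGF-beta. Preparation 4 was the highest library of every group. Without the block the fit gave -0.43 ± 0.72 (adjusted p = 0.699) and 0.37 ± 0.71 (0.720).

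The 5 spindle and cytokinesis genes had medians of -0.57 and -0.45, and 0 passed without the block. Kif20a, a kinesin of the central spindle, was at 41.2, 43.1, 64.6 and 35.9 CPM in GFP cells and 17.8, 14.9, 29.0 and 42.9 with TGF-beta. Cre cells had 38.4, 38.8, 65.2 and 29.6 CPM, and 15.5, 15.6, 34.9 and 27.1 with TGF-beta. Preparations 1 and 2 were below every untreated library. The fitted log2 fold change was -0.82 ± 0.35 (adjusted p = 0.0955) and -0.88 ± 0.35 (0.0710), and with the block -0.86 ± 0.26 (0.0154) and -0.94 ± 0.26 (0.00842).

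Tpx2, which activates Aurora A on spindle microtubules, was at 44.3, 39.4, 68.3 and 42.9 CPM in GFP cells and 23.1, 25.6, 41.9 and 54.8 with TGF-beta. Levels in Cre cells were 41.4, 41.2, 68.2 and 38.3 CPM, and 22.7, 29.5, 42.8 and 43.9 with TGF-beta. The groups overlapped (-0.42 ± 0.30, adjusted p = 0.311 and -0.45 ± 0.30, 0.269). Birc5, survivin, a partner of Aurora B, was at 9.85, 9.43, 14.8 and 8.21 CPM in GFP cells and 3.96, 3.85, 7.08 and 14.0 with TGF-beta. Cre cells had 10.7, 9.14, 14.7 and 8.90 CPM of it, and 4.25, 4.60, 6.96 and 13.1 with TGF-beta. For Birc5 preparations 1 to 3 were all below the untreated range and preparation 4 was near its top (-0.55 ± 0.41, adjusted p = 0.349 and -0.59 ± 0.41, 0.297). Without preparation 4 Birc5 fell by 1.21 ± 0.29 (0.00536) and by 1.11 ± 0.29 (0.00750).

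The last members of the role are Kif11, the kinesin that pushes spindle poles apart, and Hmmr, a spindle protein that also binds hyaluronan, the product of Has2. Kif11 had a fold change of -0.64 ± 0.52 (adjusted p = 0.392) in GFP and -0.45 ± 0.52 (0.531) in Cre cells, and passed in GFP cells with the block (0.0333). For Hmmr it was -0.57 ± 0.47 (0.391) and -0.27 ± 0.46 (0.682). Each was lower with TGF-beta in all 4 preparations of both viruses, although preparation 4 of GFP cells was nearly level. There Kif11 was at 11.45 CPM without and 11.44 with TGF-beta, and Hmmr at 18.15 and 17.91. The Cre against GFP fold change of Hmmr was -0.05 ± 0.46 without and 0.25 ± 0.47 with TGF-beta (adjusted p = 1.00 in both).

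The 2 proliferation markers are proteins of dividing nuclei: Mki67 encodes the Ki-67 antigen, and Top2a the topoisomerase that untangles sister chromatids. Mki67 was at 37.7, 21.1, 45.8 and 62.1 CPM in GFP cells and 8.197, 6.62, 17.0 and 44.6 with TGF-beta. The 4 Cre libraries held 23.2, 20.5, 26.1 and 45.5 CPM, and 11.2, 8.74, 38.9 and 32.4 with TGF-beta. It was lower in all 4 preparations of GFP cells and in 3 of 4 of Cre cells, and groups overlapped. As a log2 fold change this was -1.12 ± 0.59 (adjusted p = 0.170) and -0.34 ± 0.58 (0.684), and with the block -1.37 ± 0.31 (0.00228) and -0.52 ± 0.30 (0.163).

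Top2a was at 58.2, 35.9, 83.1 and 64.6 CPM in GFP cells and 24.5, 18.1, 45.9 and 69.7 with TGF-beta. Cre cells had 47.1, 40.5, 88.8 and 54.2 CPM, and 22.5, 27.7, 63.2 and 54.0 with TGF-beta. The first 3 preparations were lower and preparation 4 was close to level. edgeR gave -0.61 ± 0.42 (adjusted p = 0.304) and -0.46 ± 0.42 (0.429), and with the block -0.71 ± 0.22 (0.0184) and -0.53 ± 0.22 (0.0610).

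Marker lists of other cell types also differed with TGF-beta. The 5 endothelial markers, all past the filter, summed to 30.3 to 42.4 and 28.8 to 41.7 CPM in GFP and Cre cells and to 13.5 to 22.8 and 12.8 to 19.1 CPM with TGF-beta. The 6 macrophage and leukocyte markers summed to 544 to 1085 and 442 to 1130 CPM, and with TGF-beta to 357 to 741 and 343 to 761 CPM. The 4 pericyte markers summed to 10.4 to 16.3 and 8.62 to 17.9 CPM, and with TGF-beta to 59.4 to 96.2 and 39.7 to 77.9 CPM. Nearly all of that sum was Cspg4, a proteoglycan gene, while the medians of Rgs5, Kcnj8 and Abcc9 were lower with TGF-beta under both viruses and none of these 3 exceeded 3.48 CPM in any library. The part of these markers in the results for the division genes was not tested.

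Promoters of the members were searched for letters of 3 known elements of cell cycle promoters. These were E2F sites (TTCCCGC, its variant TTCGCGC, and the related spellings TTGCCGC as well as TTGGCGC), the CHR element bound by repressor and B-Myb complexes (TTTGAA, with its variant TTCGAA), and the CCAAT box. Both strands of the 250 bases before and 50 after each start were read, from the RefSeq promoter table on GRCm38.p6, in which 32 of the 41 symbols matched. Only the first listed start of each member was used, whereas the comparison kept all promoters in the table. E2F letters stood in 13 of the 32 (40.6%) against 9.6% of all 32851 promoters in the table. CHR letters stood in 16 (50%) against 19.2%, and CCAAT in 24 (75.0%) against 37.4%. An E2F match that ends in CCAA on the reverse strand can share letters with a CCAAT match.

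The letters were unevenly spread over the roles. Of 15 promoters of G1, replication and deoxynucleotide genes, 8 (53.3%) held E2F letters and 3 (20.0%) CHR letters. Of 17 promoters of the S to M phase roles, 5 (29.4%) held E2F and 13 (76.5%) CHR letters. These are counts of letters and carry no test. Below are the 150 bases before the start of 6 members, 5′ to 3′ on the gene's strand, with the letters of any of the 3 elements in capitals. Mcm5 and Rrm1 stand for replication and deoxynucleotide genes that moved in opposite directions, and the other 4 for mitotic genes and the Ki-67 gene.
Mcm5, chr8:75109359-75109508, plus strand: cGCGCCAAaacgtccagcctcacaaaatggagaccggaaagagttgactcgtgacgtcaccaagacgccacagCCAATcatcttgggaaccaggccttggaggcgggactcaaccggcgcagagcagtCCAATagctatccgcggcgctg
Rrm1, chr7:102441545-102441694, plus strand: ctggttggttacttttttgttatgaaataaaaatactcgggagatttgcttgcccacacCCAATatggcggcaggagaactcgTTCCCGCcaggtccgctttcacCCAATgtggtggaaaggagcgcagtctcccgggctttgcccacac
Cdk1, chr10:69352913-69353062, minus strand: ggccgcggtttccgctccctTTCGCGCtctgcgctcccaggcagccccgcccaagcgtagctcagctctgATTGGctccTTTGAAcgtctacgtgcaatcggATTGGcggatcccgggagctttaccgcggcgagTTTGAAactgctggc
Ccnb2, chr9:70421555-70421704, minus strand: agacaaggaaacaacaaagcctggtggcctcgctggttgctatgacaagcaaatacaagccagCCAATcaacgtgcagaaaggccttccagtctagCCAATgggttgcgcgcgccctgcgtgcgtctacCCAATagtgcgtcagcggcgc
Cdc20, chr4:118437344-118437493, minus strand: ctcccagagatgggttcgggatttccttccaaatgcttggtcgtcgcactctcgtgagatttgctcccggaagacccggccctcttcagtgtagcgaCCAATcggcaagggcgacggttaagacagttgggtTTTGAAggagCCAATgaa
Mki67, chr7:135716380-135716529, minus strand: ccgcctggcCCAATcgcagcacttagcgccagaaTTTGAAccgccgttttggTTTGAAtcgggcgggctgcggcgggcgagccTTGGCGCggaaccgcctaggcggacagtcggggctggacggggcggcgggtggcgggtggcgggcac

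In these windows Mcm5 and Rrm1 each hold E2F letters and CCAAT boxes and no CHR letters, yet Mcm5 fell and Rrm1 rose with the block. Cdk1 and Mki67 hold letters of all 3 elements, Cdc20 holds CHR and CCAAT letters, and Ccnb2 shows 3 CCAAT boxes, with CHR letters elsewhere in its searched window. No letters of the 3 elements were found in the windows of Tk1, Tyms, E2f1, Ccne1 and Birc5, of which Tk1 fell and Tyms rose with the block. That says only that those letters are not in these windows.

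Genes of the same pathways outside the 41 were counted from 4 lists. Of 26 other replication genes, 2 fell and 0 rose in GFP cells and 4 fell and 0 rose in Cre cells, with medians of -0.35 and -0.41, where 15.3% and 16.3% of all genes fell. With the block 11 of the 26 fell and 1 rose in GFP cells, against 26.5% and 22.6% of all genes, and 15 fell and 1 rose in Cre cells, against 27.3% and 25.2%. Timeless, a fork protection factor, fell by 1.25 ± 0.26 (edgeR adjusted p = 0.00204) in GFP and by 1.51 ± 0.26 (0.000480) in Cre cells. Lig1, the ligase that joins Okazaki fragments, fell by 0.59 ± 0.21 (0.0457) and by 0.64 ± 0.21 (0.0307). In Cre cells Gins3, a GINS subunit, fell by 0.47 ± 0.16 (0.0354), and Pola2, a subunit of the primase polymerase, by 0.53 ± 0.19 (0.0444). Their means were also lower with TGF-beta in GFP cells, from 5.11 to 3.75 and from 11.9 to 9.36 CPM, without passing there. The calls for Lig1, Gins3 and Pola2 were lost without any 1 of preparations 1 to 3 (adjusted p from 0.0752 for Gins3 to 0.272 for Lig1), and those for Timeless held.

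Of 33 other mitotic genes, 2 fell in GFP and 3 in Cre cells and 0 rose, with medians of -0.57 and -0.47. Of all genes 15.3% and 16.3% fell and 13.8% and 14% rose. With the block 20 of the 33 fell and 0 rose in GFP cells, and 14 fell and 1 rose in Cre cells, against the same shares of all genes as for the replication genes. Cdc25b, the phosphatase that activates Cdk1, fell by 1.18 ± 0.22 (adjusted p = 0.000791) and by 1.35 ± 0.22 (0.000265). Ncaph, a condensin subunit, fell by 0.90 ± 0.26 (0.0156) and by 0.99 ± 0.26 (0.00894). Both were lower with TGF-beta in preparation 4 as well. Incenp, which anchors Aurora B, fell by 0.58 ± 0.21 (0.0494) in Cre cells, a call that other size factors already ended (0.0506). In GFP cells its mean went from 41.3 to 28.9 CPM with TGF-beta, without passing. Leaving out preparation 1 or 2 ended the calls for Ncaph and Incenp (adjusted p from 0.0610 for Ncaph to 0.207 for Incenp), and those for Cdc25b held.

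Among 12 other G1 cyclins, kinases and E2F factors, 3 rose and 0 fell in GFP cells and 3 rose and 1 fell in Cre cells. Of all genes 13.8% and 14% rose and 15.3% and 16.3% fell. With the block 4 rose and 2 fell in GFP cells and 4 rose and 4 fell in Cre cells. There 22.6% and 25.2% of all genes rose and 26.5% and 27.3% fell. Myc, a growth-promoting factor, was at 15.2, 17.7, 20.5 and 37.2 CPM in GFP cells and 60.2, 80.0, 64.7 and 81.8 with TGF-beta. Its Cre values were 16.01, 19.2, 26.1 and 32.4 CPM, and 60.8, 83.9, 60.8 and 76.1 with TGF-beta. All libraries with TGF-beta were above all those without. Myc rose by 1.66 ± 0.27 (adjusted p = 0.000286) and by 1.59 ± 0.27 (0.000390). Cdk4, the partner of cyclin D1, rose by 0.44 ± 0.11 (0.00891) and by 0.39 ± 0.11 (0.0184), and Cdc25a, the phosphatase that activates S phase kinases, rose by 0.73 ± 0.19 (0.00904) and by 0.57 ± 0.19 (0.0318). Ccnd3, cyclin D3, fell by 0.32 ± 0.09 (0.0147) in Cre cells. In GFP cells its mean went from 193 to 172 CPM with TGF-beta, without passing. In Cre cells the calls for Cdk4, Cdc25a and Ccnd3 were lost without any 1 of preparations 1 to 3 (adjusted p from 0.0613 for Cdk4 to 0.154 for Cdc25a), and in GFP cells that for Cdk4 was lost without preparation 1. Thus Ccnd1 fell while the gene of its kinase partner rose, in all 4 preparations of both viruses.

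Of 17 tested genes of kinase inhibitors, pocket proteins and quiescence, 4 rose and 5 fell under each virus. With the block 5 rose and 8 fell under each, and the shares of all genes are those given for the G1 list. Cdkn2b, the p15 inhibitor of the G1 kinases and a textbook TGF-beta target, was at 39.5, 33.9, 32.3 and 57.0 CPM in GFP cells and 151, 135, 132 and 102 with TGF-beta. After the Cre virus the levels were 41.4, 32.99, 34.7 and 57.9 CPM, and 140, 129, 122 and 118 with TGF-beta. Groups were far apart, with preparation 4 the highest without and the lowest with TGF-beta. Cdkn2b rose by 1.68 ± 0.20 (adjusted p = 2.08e-05) and by 1.61 ± 0.20 (2.80e-05).

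Cdkn1a, the p21 inhibitor, was at 574, 607, 561 and 524 CPM in GFP cells and 746, 740, 625 and 527 with TGF-beta. The Cre libraries gave 590, 625, 565 and 544 CPM, and 721, 702, 610 and 576 with TGF-beta. Preparation 4 in GFP cells was level and the other pairs were higher (0.22 ± 0.12, adjusted p = 0.172 and 0.17 ± 0.12, 0.290). With the block the adjusted p was 0.0198 in GFP and 0.0587 in Cre cells. Gas1, a membrane protein of growth-arrested fibroblasts, fell by 3.45 ± 0.66 (0.00118) and by 3.55 ± 0.66 (0.000940), from 64.5 to 297 CPM over the GFP libraries to 5.56 to 27.4 CPM with TGF-beta. Cdkn2c and Cdkn2d encode relatives of p15. Cdkn2c fell by 0.51 ± 0.13 (0.00680) in GFP cells, which was lost without preparation 1 (0.0542), and Cdkn2d fell by 0.56 ± 0.11 (0.00169) in Cre cells. Btg1, an antiproliferative factor, rose by 0.68 ± 0.11 (0.000329) in GFP cells, and Ccng2, a cyclin of quiescent cells, fell by 0.57 ± 0.13 (0.00308) in Cre cells. Cdkn2c, Cdkn2d, Btg1 and Ccng2 are each named for the virus where their p was among the 4 smallest of the list. Their tests under the other virus are not given here, and their means there moved the same way with TGF-beta. In Cre cells Cdkn2c went from 20.2 to 13.75 CPM and Btg1 from 42.4 to 60.2. In GFP cells Cdkn2d went from 17.5 to 13.9 CPM and Ccng2 from 42.15 to 30.4.

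The Cre virus was compared with the GFP virus next, which addresses the planned loss of Has2. None of the 41 genes passed with edgeR, in either direction, with or without TGF-beta, and 0% of all genes did. At an unadjusted p under 0.05 there were 0 members in either comparison (169 and 268 of all genes), and with the block 0 and 1 (882 and 2039 of all genes). DESeq2 called 0 members too, against 0.00687% of genes higher without TGF-beta and 0% elsewhere. With the block 0 members passed, against 0.164% of all genes higher and 0.00654% lower without TGF-beta, and 0.0654% higher and 0% lower with it. The lowest adjusted p of a member was 0.827 and 0.359 with the block. Without preparation 4 there were again 0 members, while of all genes 0.112% were higher without TGF-beta. With the block as well, 0 members passed, against 0.678% higher and 0.0724% lower without TGF-beta and 1.48% and 0.0527% with it. The median log2 fold change of the 41 was -0.02 without and -0.0044 with TGF-beta.

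None of the 41 had 4 Cre libraries all above or all below the 4 GFP libraries, against 1.13% of all genes higher and 0.334% lower without TGF-beta and 0.824% and 0.752% with it. Within preparations the members' median Cre minus GFP difference was -0.08, 0.00065, 0.08 and -0.16 without TGF-beta and -0.03, 0.06, 0.15 and -0.22 with it. Preparation 4 was the lowest in both, with 34 and 31 of the 41 genes below GFP, against 53.2% and 49.2% of all genes tested. Ccnd1, the gene with the highest level, differed by 0.01 (95% interval -0.49 to 0.51) without TGF-beta and Rrm1 by -0.02 (-0.37 to 0.33). Intervals of this width leave modest differences undetected.

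The difference between the TGF-beta responses, Cre minus GFP, passed for 0 members and 0% of all genes with edgeR, with or without the block, and with DESeq2. At an unadjusted p under 0.05 there were 0 members without the block, of 90 genes in all. With it there were 2 of the 41, against 501 of the 15285 genes, a share near that background. For Ccnd1 the difference was -0.01 ± 0.33, for Tk1 -0.03 ± 0.54 and for Bub1b -0.07 ± 0.37.

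Several of the widest differences between the viruses were those of long genes, though not all. Mki67 in GFP cells without TGF-beta averaged 41.7 ± 17.1 CPM (SD, n = 4), and after the Cre virus 28.8 ± 11.4. Means under TGF-beta were 19.1 ± 17.6 and 22.8 ± 15.1 CPM. Its Cre against GFP fold change was -0.53 ± 0.58 (adjusted p = 1.00) without and 0.25 ± 0.58 (1.00) with TGF-beta, below 0 in 4 of 4 preparations without and above 0 in 3 of 4 with it. Mki67 has 10061 exon bases, and the other 4 of the 5 longest members are Cenpf (15433), Rrm1 (11012), Top2a (9013) and Cenpe (8620). Ccne2, a shorter gene of 3495 exon bases with few counts, had a difference of 0.53 ± 0.92 (adjusted p = 1.00) with TGF-beta, about as wide as that of Cenpe (0.53).

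With the block, the response difference had a median of 0.85 over these 5 longest members and of -0.03 over the other 36, a split chosen after the values were seen. It was 1.05 (95% interval 0.16 to 1.93) for Cenpf, 0.93 (0.0027 to 1.86) for Cenpe and 0.85 (-0.07 to 1.77) for Mki67, each with an adjusted p of 1.00, but -0.06 for Rrm1 and 0.18 for Top2a. Among the shorter genes Ccne2 had a value as wide, 0.84 (-0.28 to 1.97). The libraries differed in how long genes were represented. The median level of genes in the longest decile relative to the shortest decile, each gene centred on its mean over libraries, ran from 0.07 to 0.40 in GFP cells and from -0.16 to 0.24 in Cre cells. With TGF-beta it ran from -0.23 to 0.14 and from -0.93 to 0.34. Across genes, the Cre against GFP fold change had a Spearman correlation with exon length of -0.38 over all genes and -0.37 over the members without TGF-beta, and of -0.28 and 0.16 with it. Genes share the libraries, so these are descriptions, and the part of length in the members' differences was not tested.

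**Figure D5:**
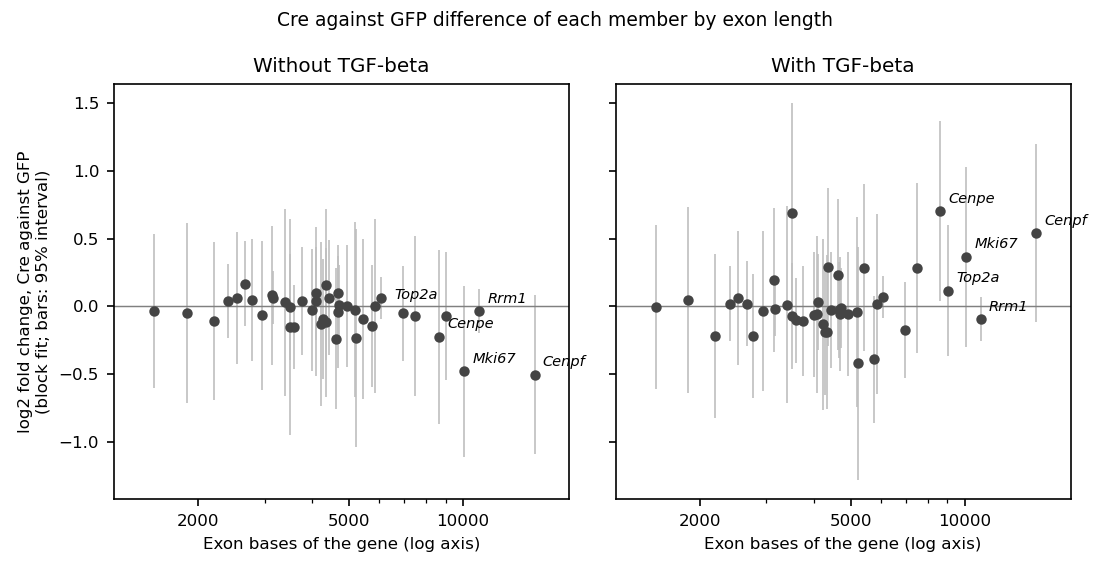
Cre against GFP log2 fold change of each of the 41 genes from the fit with the preparation block, against exon length on a log axis, without TGF-beta (left) and with TGF-beta (right). Bars are 95% intervals. Cenpf and Mki67 lie lowest on the left, and Cenpe, Ccne2, Cenpf and Mki67 lie above 0 on the right, with none passing the adjusted test.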

How the data were processed

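Total RNA from 16 libraries was sequenced after NEBNext Ultra II preparation, per the labels. Raw counts per Ensembl gene, not normalized, are what the authors deposited, in 1 table. The submitters' processing notes name HTSeq 0.10.0, FastQC 0.10.1 and the build mm39. The aligner, annotation and strandedness were not given in the sources used here. Reads of overlapping, antisense or near-identical genes could therefore be mixed. GENCODE M21, made on GRCm38, supplied symbols and exon lengths only.

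Columns were mapped to samples by library name. Genes were kept by filterByExpr (minimum count 10, minimum total count 15), scaled by TMM (factors 0.908 to 1.12) and tested with edgeR 4.0.16 (quasi-likelihood F test, limma 3.58.1, R 4.3.3) with 1 mean per group over all 16 libraries. P-values were adjusted by Benjamini-Hochberg over 15285 genes and called under 0.05. DESeq2 1.42.0 was an alternative. The tests were tried on simulated data. SE is the fold change over the square root of F. Module levels used a pseudocount of 0.5 CPM. No libraries of a group were within sampling noise of each other (chi-square per gene 7.24 to 217).

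Replicate numbers pair the libraries: library names share a preparation code, and the 24 same-numbered pairs had correlated deviations from their group means (r 0.364 to 0.888), against a median of -0.13 over 72 others. The biological coefficient of variation was 0.254 without and 0.123 with the preparation as a block. Unblocked tests therefore carry the differences among the 4 preparations in their error.

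The members and the gene lists were chosen with earlier results of these data known, so their counts are no independent evidence. Values in every library are given for 10 fixed members and for up to 3 members per role with the smallest p in a TGF-beta comparison, and named pathway genes are called ones among the 4 with the smallest p per list and comparison, with Cdkn1a, Cdkn2b and Myc whatever their result.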

Additional observations from a re-analysis of the deposited data

Results flagged for a closer look

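In each group of 4 libraries the highest and lowest value of every member was set against the others, and 17 of 164 gene and group combinations had 1 library far from the rest by Dixon's criterion. Chance flags about 1 in 20 groups, and the genes share libraries, so these are not 17 separate events.

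Most lay in preparation 3 without TGF-beta. In GFP cells its library was far above the other 3 for Ccnb1 (27.6 CPM), Ccnb2 (18.5), Plk1 (33.6), Aurkb (15.2) and Tpx2 (68.3). In Cre cells it was far above them for Ccnb1 (27.9 CPM), Cdk1 (37.6), Foxm1 (29.9), Plk1 (32.5), Aurkb (14.1) and Tpx2 (68.2). Preparation 4 was far above the others for Ccne2 in GFP cells (7.70 CPM), Cenpe in Cre cells (15.2), and Ccne1 (29.9), Cdt1 (10.2) and Cdc45 (12.6) in GFP cells with TGF-beta. Tyms in preparation 1 of GFP cells with TGF-beta was far below the others at 24.3 CPM.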

How the results depend on the processing

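Members called with TGF-beta depended on the block and on preparation 4, and the cause was not tested. In GFP cells (3 lower, 0 higher) the block gave 14 and 2. Leaving out 1 library or preparation gave 1 to 17 lower and 0 to 1 higher, with 13 lower without the GFP library of preparation 4 with TGF-beta, 17 without preparation 4 and 1 without preparation 1 or 2. With the block as well, it gave 4 lower without preparation 1, 5 without 2 or 3, 33 without preparation 4, and 2 higher each time. Over all genes these blocked fits called 2571, 2826, 3042 and 3847 higher without preparation 1, 2, 3 and 4, against 3451 with all. Those are calls in the other direction. Of all genes, 15.3% were lower in the main fit, 26.5% with the block, 21.3% without preparation 4, and 27.7% with the block and without it. In Cre cells (3 lower, 0 higher) the block gave 12 and 2, and DESeq2 gave 5 lower. Leaving out 1 library or preparation gave 1 to 14 lower and 0 to 2 higher, with 14 without preparation 4 and 1 without preparation 1 or 2. With the block it gave 4 lower without preparation 1 or 2, 7 without 3, 28 without preparation 4, and 1 or 2 higher. Of all genes in Cre cells, 16.3%, 27.3%, 22.5% and 28.6% were lower, in the same order of fits as for GFP cells. For the other runs that left out a library or preparation, the share of all genes called lower is not given here. Mcm6 in Cre cells turned from 0.08 to -0.23 (adjusted p = 0.0179) with the block and without preparation 4. Without a filter on low counts, Tk1 had an adjusted p of 0.0684 in GFP and 0.0569 in Cre cells, and 0.0562 in GFP cells fitted on their own 2 groups. The Cre comparisons and the response difference gave 0 members under every alternative run. No call for a member turned on the size factors. Counts as low as 6 and a wide spread among preparations limit Ccne2, and 4 preparations limit all tests.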
